A study of Homo sapiens with 2 samples.

Results

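The ATP-binding cassette (ABC) genes of the A1847 RNA-Seq counts were taken as every protein-coding gene whose symbol is ABC, a letter from A to G and a number, together with CFTR. This gave 46 genes among the 57736 genes of the table, and all 46 had a row. A1847 is an established human ovarian cancer cell line. The comparison was between 1 library of parental control cells, labelled CARM1 wild type, and 1 library of CARM1 knockout (CARM1 KO) cells. The knockout cells are a single clone made with a CARM1 guide RNA in a lentiviral CRISPR vector, whereas the control is the parental line, and both were grown in the same medium. A difference that comes from growing out 1 clone and one that comes from CARM1 loss cannot be told apart. Each condition had 1 library, so the differences below have no replicate check and no p-value is given. In bulk RNA, fewer cells of a kind and less RNA per cell likewise cannot be told apart.

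ABC proteins bind and hydrolyse ATP in a pair of nucleotide-binding domains, and most of them use this energy to move a substrate across a membrane. Subfamily A moves lipids. Subfamilies B, C and G include the pumps that remove cytotoxic drugs from tumour cells, among them ABCB1 (P-glycoprotein), ABCC1 (MRP1) and ABCG2 (BCRP). These pumps are studied in ovarian cancer for this reason. Most members of subfamily D bring fatty acids into peroxisomes. Subfamilies E and F have no membrane domain and act at the ribosome.

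The libraries held 30741953 parental reads and 32300391 knockout reads. Folds are ratios of counts scaled by edgeR's TMM method. The interval beside a fold is an exact 95% binomial interval that covers counting error only, since 1 library per condition shows no spread between replicates. It treats every read as an independent molecule, so reads copied by PCR make it too narrow. CARM1 itself, the targeted gene, was lower in the knockout by a factor of 2.63 (interval 2.33 to 2.97), with 975 reads in the parental library against 380 in the knockout. The paper examined the knockout by immunoblot for CARM1 protein, which read counts do not measure. Of 6 textbook markers of ovarian epithelial tumour cells, KRT8, KRT18, PAX8 and EPCAM had at least 249 reads in each library, whereas WT1 had 8 parental reads and 1 knockout read and MUC16 had 0 and 1. KRT8, PAX8 and EPCAM were 3.91-fold, 3.61-fold and 3.33-fold higher in CARM1 KO cells. The part of this shift in the differences below was not tested.

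Sequence around the transcription start is shown for the genes on which the comparison turns most and for which a RefSeq start window was at hand. Each window is 300 bases long, lies mostly upstream of an annotated start, is given 5′ to 3′ on the strand of the gene (the minus strand for ABCB1, ABCD2 and ABCG2), and has its coordinates in GRCh38.p14. Capitals mark 5 short motifs searched on both strands, namely the GC box GGGCGG, the CCAAT box, the TATA box TATAAA, the core of the antioxidant response element TGANNNNGC and the core of the xenobiotic response element GCGTG. Where motifs overlap, their capitals run together. ABCB1 is shown because it was the drug-efflux gene with the largest fold, with windows at both of its annotated starts.

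ABCB1, downstream start, chr7:87600835-87601134: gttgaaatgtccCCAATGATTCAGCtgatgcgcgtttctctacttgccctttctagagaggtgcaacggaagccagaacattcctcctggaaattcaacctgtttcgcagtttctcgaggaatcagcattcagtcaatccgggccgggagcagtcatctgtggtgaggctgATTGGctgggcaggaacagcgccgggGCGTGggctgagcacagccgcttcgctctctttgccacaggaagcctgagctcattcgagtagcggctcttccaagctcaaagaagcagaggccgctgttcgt
ABCB1, upstream start, chr7:87713246-87713545: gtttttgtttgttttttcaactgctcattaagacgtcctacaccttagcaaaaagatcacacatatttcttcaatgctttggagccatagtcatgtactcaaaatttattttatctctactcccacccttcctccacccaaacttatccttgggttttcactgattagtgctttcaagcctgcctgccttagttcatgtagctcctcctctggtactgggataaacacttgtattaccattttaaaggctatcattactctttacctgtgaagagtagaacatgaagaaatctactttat

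The downstream ABCB1 window held 2 CCAAT motifs, 1 antioxidant core and 1 xenobiotic core, with 16 CpG dinucleotides. The upstream window held none of the 5 motifs and 1 CpG. ABCD2 is shown because it had the largest fold among the members that were lower in CARM1 KO cells.

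ABCD2, upstream start, chr12:39619754-39620053: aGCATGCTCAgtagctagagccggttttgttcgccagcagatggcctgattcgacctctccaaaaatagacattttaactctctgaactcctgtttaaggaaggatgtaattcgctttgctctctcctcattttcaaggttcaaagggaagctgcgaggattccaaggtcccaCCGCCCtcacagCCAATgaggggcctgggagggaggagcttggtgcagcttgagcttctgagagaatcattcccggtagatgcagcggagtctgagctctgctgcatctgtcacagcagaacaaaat
ABCD2, downstream start, chr12:39605458-39605757: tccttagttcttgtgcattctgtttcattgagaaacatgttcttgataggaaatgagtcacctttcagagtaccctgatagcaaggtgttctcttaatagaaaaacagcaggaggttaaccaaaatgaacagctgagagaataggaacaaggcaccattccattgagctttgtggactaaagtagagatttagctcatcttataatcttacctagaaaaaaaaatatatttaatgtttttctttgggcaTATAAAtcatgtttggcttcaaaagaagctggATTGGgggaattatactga

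The upstream ABCD2 window held 1 GC box, 1 CCAAT motif and 1 antioxidant core, and the downstream window held 1 CCAAT motif and 1 TATA box. ABCG2 is shown as the drug-efflux gene that was lower, at 1 of its CpG-rich starts and at its most upstream start.

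ABCG2, CpG-rich start, chr4:88158590-88158889: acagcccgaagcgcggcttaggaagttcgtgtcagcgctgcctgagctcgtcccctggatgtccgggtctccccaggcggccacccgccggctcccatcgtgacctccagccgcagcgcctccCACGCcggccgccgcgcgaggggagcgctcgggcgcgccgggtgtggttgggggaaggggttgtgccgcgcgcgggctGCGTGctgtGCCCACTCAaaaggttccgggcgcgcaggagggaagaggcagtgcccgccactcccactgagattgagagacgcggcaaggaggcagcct
ABCG2, most upstream start, chr4:88231577-88231876: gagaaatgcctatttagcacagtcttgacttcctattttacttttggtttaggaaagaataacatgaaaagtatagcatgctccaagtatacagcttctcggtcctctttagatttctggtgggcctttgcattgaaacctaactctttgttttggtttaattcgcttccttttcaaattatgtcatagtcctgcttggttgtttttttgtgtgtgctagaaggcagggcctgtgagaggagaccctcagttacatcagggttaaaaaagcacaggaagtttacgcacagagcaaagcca

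The CpG-rich ABCG2 window held 2 xenobiotic cores and 1 antioxidant core with 35 CpG dinucleotides, and the most upstream window held no motif and 3 CpG. Over all 21209 windows of protein-coding genes, GGGCGG was present in 57.1%, CCAAT in 34.8%, TATAAA in 9.32%, TGANNNNGC in 41.9% and GCGTG in 43.2%. In the 54 windows of 36 members the shares were 46.3%, 24.1%, 14.8%, 42.6% and 42.6% in the same order. A match describes these letters and is not evidence of a bound factor. The 10 members with no window included ABCA4, ABCA8, ABCB4, ABCB5, ABCC1, ABCC3, ABCC8 and ABCG1.

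Of the 46 members, 34 had at least 10 reads in both libraries together and were compared. Past a fold of 3, which is the fold part of the threshold in the study and was used here without its false discovery rate, 3 members were higher in CARM1 KO cells (ABCA4, ABCB4 and ABCB1) and 3 were lower (ABCD2, ABCC6 and ABCA7). This was 8.82% of the compared members in each direction. Among all 18563 genes compared, 12.8% were higher and 11.7% were lower past the same fold, and among the protein-coding genes the shares were 12.7% and 9.21%. The ABC genes were therefore not called more often than the rest of the transcriptome. The median log2 fold of the compared members was 0.16, against -0.03 over all genes and 0.03 over protein-coding genes. The other 28 members were within 3-fold, with the highest log2 fold at 1.55 for ABCG4, and 16 of them were within 1.5-fold. The interval lay wholly past 3-fold for ABCB1, ABCB4 and ABCD2, that is for 2 higher members and 1 lower member. By that stricter rule 6.96% of all genes were higher and 6.65% were lower.

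**Figure D1:**
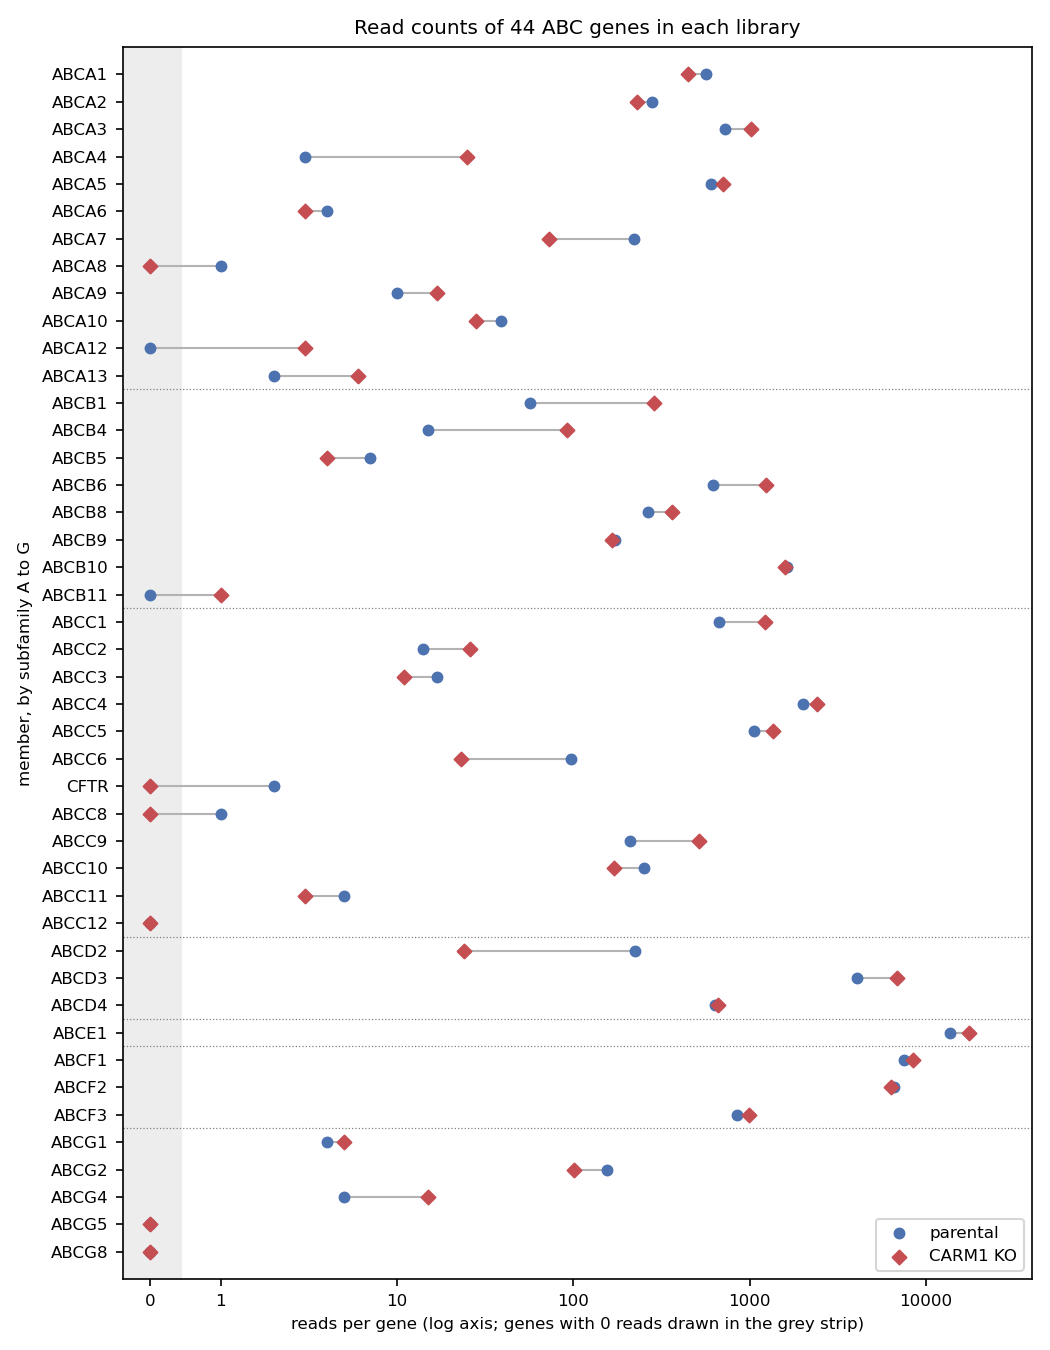
Reads of 44 of the 46 members in the parental library (circles) and the CARM1 KO library (diamonds) on a log axis, in order of subfamily, with dotted lines between subfamilies and genes at 0 reads in the grey strip, where the diamond covers the circle if both libraries are at 0. The counts reach from 0 reads for ABCC12, ABCG5 and ABCG8 to 17604 reads for ABCE1 in CARM1 KO cells.

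**Figure D2:**
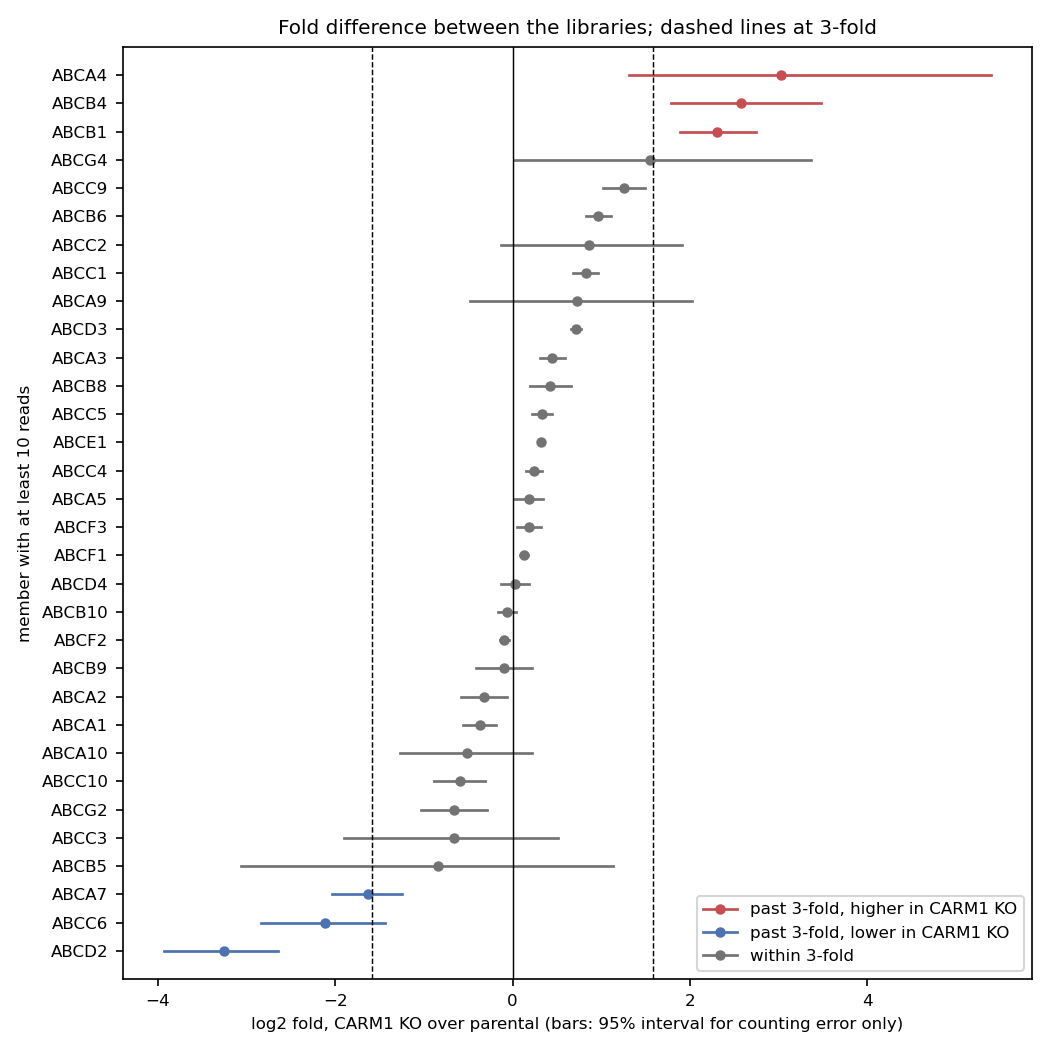
Log2 fold of CARM1 KO over parental for 32 of the 34 compared members, with 95% intervals for counting error only and dashed lines at 3-fold. The 3 higher members stand at the top and the 3 lower members at the bottom, and the intervals of ABCA4, ABCC6 and ABCA7 cross the dashed lines.

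Of the 3 drug-efflux genes, ABCB1 and ABCC1 were higher and ABCG2 was lower in CARM1 KO cells, and ABCB1 alone passed 3-fold. ABCB1 had 57 reads in the parental library against 289 in the knockout, which made it 4.95-fold higher after knockout (interval 3.72 to 6.70). ABCC1, which exports glutathione conjugates as well as drugs, had 675 parental reads and 1224 knockout reads. It was 1.77-fold higher (interval 1.61 to 1.95) and did not pass the fold threshold. ABCG2, which exports drugs, porphyrins and urate, had 156 reads in the parental library against 101 in the knockout, and was 1.58-fold lower (interval 1.22 to 2.05), also within the threshold. Expressed as reads per kilobase of the canonical transcript and adjusted for scaled library size (RPKM), ABCC1 had the highest level of these genes in both libraries, at 3.33 in parental and 5.90 in CARM1 KO cells. ABCB1 was at 0.352 RPKM in parental and 1.74 RPKM in CARM1 KO cells. ABCG2 was at 1.19 RPKM in parental and 0.753 RPKM in CARM1 KO cells, so the order of ABCB1 and ABCG2 was turned between the libraries.

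Subfamily B held ABCB1 and ABCB4, the higher members whose intervals lay wholly past 3-fold, and no member lower past 3-fold. ABCB4, the phosphatidylcholine floppase of the bile canaliculus and the closest relative of ABCB1, had 15 parental reads and 92 knockout reads. It was 5.99-fold higher in CARM1 KO cells (interval 3.45 to 11.1), and its interval overlapped that of ABCB1. Of the smaller transporters of mitochondria and lysosomes, ABCB6, which carries porphyrins, was 1.96-fold higher (interval 1.78 to 2.16), with 619 reads in the parental library against 1240 in the knockout. ABCB8, of the mitochondrial inner membrane, was 1.35-fold higher (interval 1.15 to 1.58). ABCB10, of the mitochondrial inner membrane, had 1626 parental reads and 1591 knockout reads, and its interval held no change. ABCB9, a lysosomal peptide transporter, had 173 and 166 reads. However, 1590 bases of its exons lie opposite ARL6IP4, which had 3431 and 4181 reads, and the use of strand in counting is not stated. Of all members, 10 share exonic bases with another gene that had reads. ABCB5 had 7 and 4 reads. ABCB11, the bile salt export pump, had 0 reads in the parental library against 1 in the knockout.

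Subfamily C had no member past 3-fold in the higher direction and 1 in the lower. ABCC6, a transporter of liver and kidney whose loss causes ectopic mineralisation, had 97 parental reads and 23 knockout reads, that is 4.32-fold fewer after scaling (interval 2.72 to 7.13). Its pseudogenes share sequence with it, so the division of reads among them is uncertain. ABCC6P1 had 60 reads in the parental library against 10 in the knockout, that is 6.14-fold fewer after scaling (interval 3.12 to 13.5). ABCC6P2 had 18 and 11 reads, and its interval held no change. ABCC9, the sulfonylurea receptor SUR2 of ATP-sensitive potassium channels, had 210 parental reads and 514 knockout reads and was 2.39-fold higher (interval 2.03 to 2.82). Its relative ABCC8 (SUR1) had 1 and 0 reads. Among the other multidrug resistance proteins, ABCC4, which exports cyclic nucleotides and prostaglandins, was 1.18-fold higher and ABCC5 was 1.26-fold higher. ABCC10 was 1.51-fold lower (interval 1.24 to 1.84). ABCC2 and ABCC3, organic anion exporters of liver, had at most 26 reads in either library, and their intervals held no change. CFTR, the chloride channel of the family, had 2 reads in the parental library against 0 in the knockout. ABCC11 had 5 and 3 reads, but 289 bases of its exons lie opposite LONP2, which had 3707 and 3384 reads. ABCC12 had 0 reads in both libraries.

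Subfamily D held members that were lower and members that were higher in CARM1 KO cells, with 1 past 3-fold. ABCD2, an importer of very long-chain fatty acids into peroxisomes, had 224 parental reads and 24 knockout reads, that is 9.56-fold fewer after scaling (interval 6.26 to 15.2). ABCD3, which brings branched-chain acyl-CoAs and bile acid intermediates into peroxisomes, was 1.64-fold higher (interval 1.58 to 1.71), with 4088 reads in the parental library against 6881 in the knockout. ABCD4, a lysosomal transporter of vitamin B12, had 635 and 663 reads, and its interval held no change. By length ABCD3 was the most abundant of the 4 in both libraries, at 36.4 RPKM in parental and 59.9 RPKM in CARM1 KO cells, while ABCD2 was at 1.14 RPKM in parental cells.

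In subfamily A, 8 of 12 members were compared, and 1 was higher and 1 lower past 3-fold. ABCA7, a phospholipid transporter studied for its link to late-onset Alzheimer disease, had 221 parental reads and 73 knockout reads and was 3.10-fold lower (interval 2.37 to 4.10), close to the threshold. ABCA4, the retinoid flippase of photoreceptors, had 3 reads in the parental library against 25 in the knockout. It was 8.14-fold higher, with a wide interval of 2.48 to 42.1. ABCA1, which hands cholesterol to apolipoprotein A-I, had 565 and 447 reads and was 1.29-fold lower (interval 1.14 to 1.47). ABCA2 was 1.25-fold lower, and ABCA3, the surfactant lipid transporter of lamellar bodies, was 1.37-fold higher. ABCA5 had 608 and 710 reads. ABCA9 and ABCA10 had at most 39 reads in either library, and their intervals held no change. ABCA6, ABCA8, ABCA12 and ABCA13 had at most 8 reads in both libraries together.

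Only 2 members of subfamily G reached 10 reads. ABCG4, a sterol exporter, had 5 parental reads and 15 knockout reads and was 2.93-fold higher (interval 1.01 to 10.3), just inside the fold threshold. ABCG1, which like ABCA1 is a cholesterol exporter, had 4 and 5 reads. ABCG5 and ABCG8, which form the sterolin pump of liver and gut, had 0 reads in both libraries, which allows up to 3 reads in each. The 12 members of all subfamilies with fewer than 10 reads in all were ABCA6, ABCA8, ABCA12, ABCA13, ABCB11, ABCC8, ABCC11, ABCC12, ABCG1, ABCG5, ABCG8 and CFTR, and no fold is given for them.

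The soluble subfamilies gave most of the ABC reads, and their folds ranged from 1.07-fold lower to 1.25-fold higher. ABCE1, which splits ribosomes after termination, had 13761 reads in the parental library against 17604 in the knockout, that is 1.25-fold more after scaling (interval 1.22 to 1.28). Of its 6254 exonic bases, 276 lie opposite OTUD4 (2531 and 2639 reads) and 132 opposite ANAPC10 (1059 and 1047 reads). ABCF1, which acts in translation initiation, had 7504 and 8427 reads and was 1.10-fold higher. ABCF2 had 6578 and 6322 reads and was 1.07-fold lower, and ABCF3 had 849 and 989 reads and was 1.14-fold higher. Subfamilies E and F together took 64.2% of the ABC reads in parental (interval 63.8% to 64.7%) and 61.6% in CARM1 KO cells (interval 61.1% to 62.0%). Subfamily D took 11.3% in parental (interval 11.0% to 11.6%) and 14.1% in CARM1 KO cells (interval 13.8% to 14.4%), most of it from ABCD3. Subfamily G took 0.369% and 0.223%. In RPKM the 5 members with the highest mean level were ABCE1, ABCF1, ABCD3, ABCF2 and ABCB10, and they were the same 5 with merged exon length in place of the canonical transcript. ABCE1 was at 114 RPKM in parental and 142 RPKM in CARM1 KO cells, and ABCB10 was at 13.5 and 12.9 RPKM. The mean level over the libraries was at least 1 RPKM for 20 of the 46 members. None of the 5 members with the highest mean level passed a fold of 3. The called members lay between 0.0131 RPKM for ABCA4 and 1.14 RPKM for ABCD2 in parental cells. In CARM1 KO cells they lay between 0.107 RPKM for ABCA4 and 1.74 RPKM for ABCB1.

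**Figure D3:**
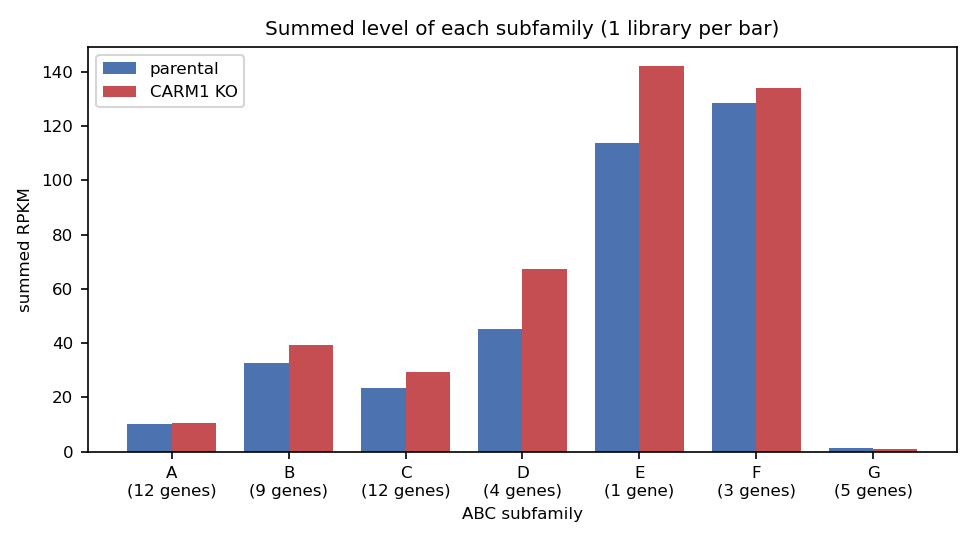
Summed RPKM of each ABC subfamily in the parental and CARM1 KO libraries, with the number of genes under each letter and 1 library behind each bar, so no error is drawn. Subfamily F is at 129 and 134 RPKM and subfamily E at 114 and 142 RPKM, while subfamily G is at 1.28 and 0.929 RPKM.

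Many members lie beside one another in the genome. With gaps of at most 500 kb, 19 members formed 8 groups in GRCh37. ABCB4 and ABCB1 lie on chromosome 7 between 87031012 and 87342639, both on the minus strand and 22582 bp apart, and both were past 3-fold in the same direction. RUNDC3B, which lies on the opposite strand, partly overlaps the span of ABCB1 and shares no exonic base with it, was also higher, with 20 parental reads and 99 knockout reads (log2 fold 2.27). On the far side of ABCB4, CROT, a peroxisomal carnitine acyltransferase, had a log2 fold of 0.62, and beyond ABCB1, SLC25A40 had 0.94. All 11 compared protein-coding neighbours within 1 Mb of ABCB1, ABCB4 included, had log2 folds above 0, with a median of 0.94 and a range from 0.18 to 3.02. Of these 11, 3 were higher past 3-fold, ABCB4 and RUNDC3B among them, against 12.7% of the protein-coding genes compared. The interval of RUNDC3B, 2.97 to 8.26, began just under 3-fold. Over all protein-coding genes compared, 7254 of 14140 had log2 folds above 0. DNA copy number was not measured.

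ABCC1 and ABCC6 also lie side by side, 6308 bp apart on chromosome 16 between 16042995 and 16317379, on opposite strands. Their log2 folds went opposite ways, at 0.82 for ABCC1 and -2.11 for ABCC6. CEP20 on the other side of ABCC1 had a log2 fold of 0.17, and NOMO3 beyond ABCC6 had 0.20. Over the 15 compared neighbours within 1 Mb of ABCC1 the median was 0.15, and 9 were above 0.

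ABCD2 lies on chromosome 12 between 39943835 and 40013605. All 5 of its compared neighbours within 1 Mb had log2 folds below 0, with a median of -1.42 and a range from -1.77 to -0.17. The nearest ones, KIF21A and SLC2A13, had -0.17 and -0.74, against -3.26 for ABCD2. Around ABCG2 on chromosome 4, the nearest neighbours were lower in the knockout, PKD2 with 1445 and 741 reads and PPM1K with 1090 and 395 reads, and 9 of 15 neighbours were below 0. ABCA4 and ABCD3 lie 297241 bp apart on chromosome 1. ARHGAP29, next to ABCA4, had 1418 reads in the parental library against 19399 in the knockout (log2 fold 3.74), GCLM on its other side had 0.60, and 15 of 16 neighbours of ABCA4 were above 0. ABCA7 lies on chromosome 19 between CNN2, with a log2 fold of -1.29, and ARHGAP45, with 0.67, and 40 of its 57 neighbours were below 0.

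**Figure D4:**
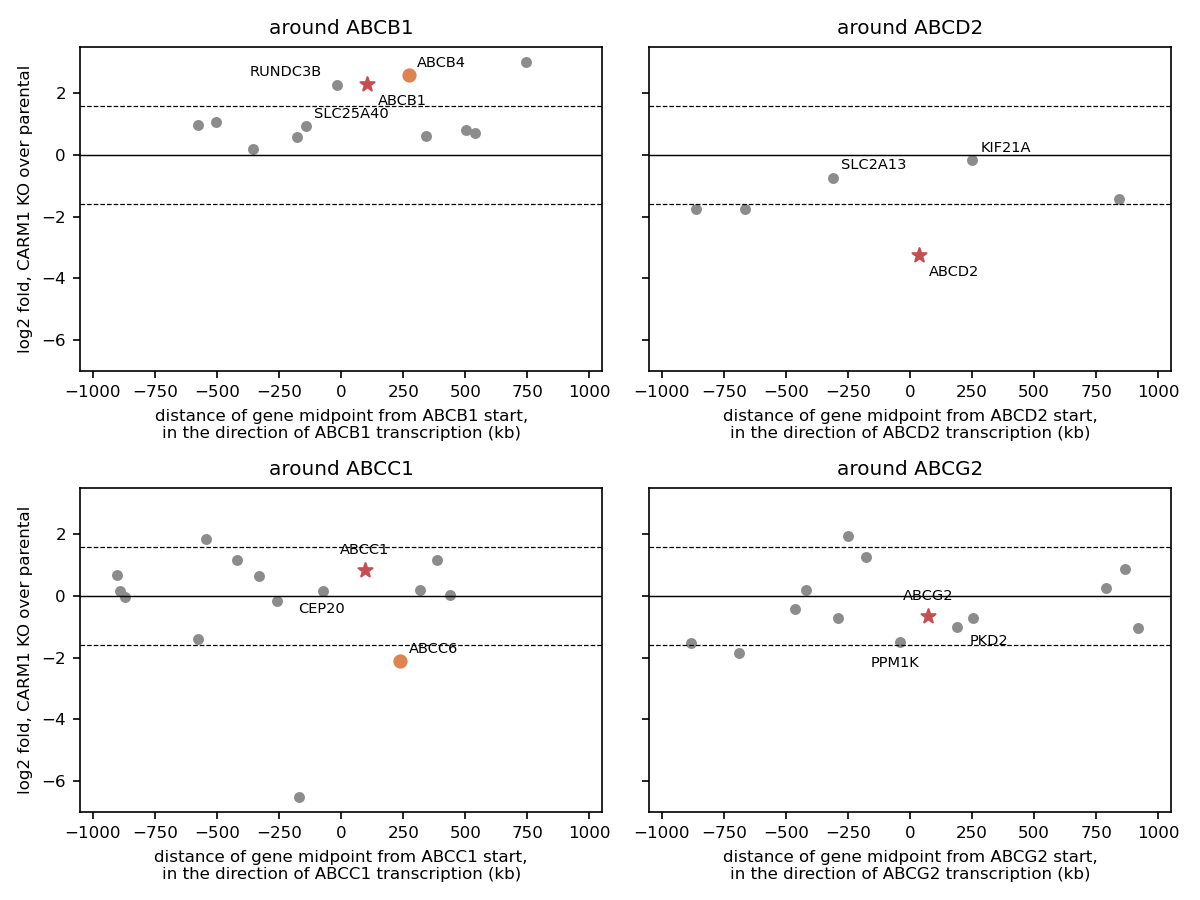
Log2 fold of CARM1 KO over parental for protein-coding genes whose midpoint lies within 1 Mb of the start of ABCB1, ABCD2, ABCC1 or ABCG2, against distance in the direction of transcription, with the named member as a star, other ABC genes in orange and dashed lines at 3-fold. Every gene around ABCB1 lies above 0 and every gene around ABCD2 below 0, while ABCC1 and ABCC6 lie on opposite sides.

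In the 5 subfamily A genes in a row on chromosome 17 between 66863430 and 67323385, all on the minus strand, the 3 that were compared were ABCA9, ABCA10 and ABCA5, none past 3-fold. ABCA5 and ABCA10 share 318 exonic bases on the same strand. The other neighbouring groups were ABCC5 with ABCF3 on chromosome 3 and ABCB8 with ABCF2 on chromosome 7, all within 3-fold, and ABCC11 with ABCC12 on chromosome 16 and ABCG5 with ABCG8 on chromosome 2, of which no gene reached 10 reads.

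Members with few reads had a lower median CpG ratio in their start windows. The CpG ratio, the observed over the expected number of CpG dinucleotides, was taken at the window where it was highest for each gene. Its median was 0.863 in the 27 members with a window and at least 10 reads and 0.285 in the 9 members with a window and fewer reads, against 0.807 over 14998 protein-coding genes. A ratio of at least 0.6 was found in 23 of the 27 and in 1 of the 9, ABCC11, and in 71.8% of protein-coding genes. Of the called members with a window, ABCB1 had 0.698, ABCA7 had 0.789 and ABCC6 had 0.826. ABCD2 had 0.416, under the ratio of most members that were read. The ratio describes the sequence and was not tested against the counts.

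**Figure D5:**
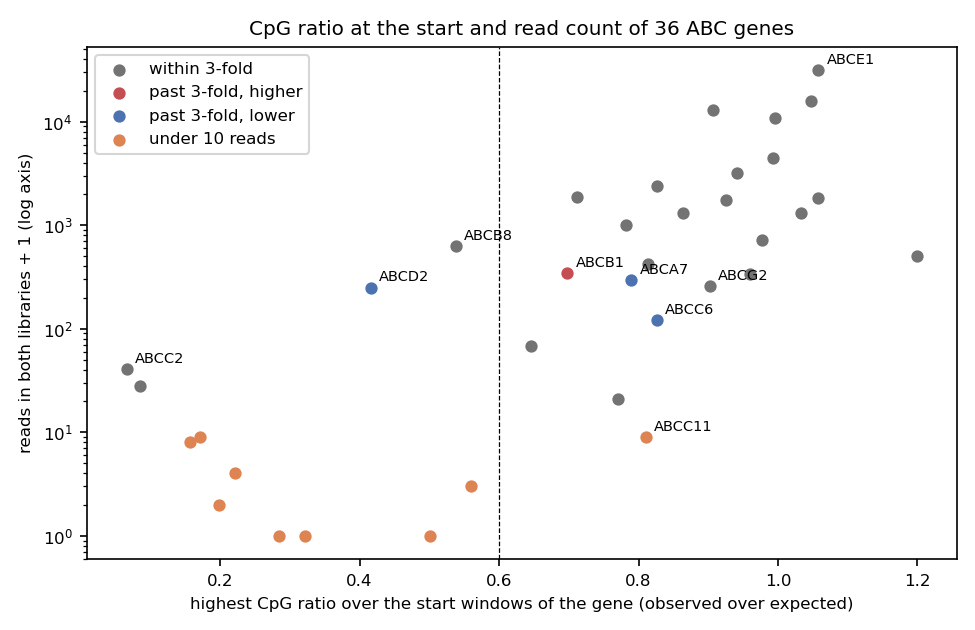
Reads in both libraries together plus 1, on a log axis, against the highest CpG ratio over the RefSeq start windows, for the 36 members with a window, coloured by the fold between the libraries, with a dashed line at 0.6. The members under 10 reads lie left of the line apart from ABCC11, and ABCD2 lies left of it at 0.416.

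Genes that work with the ABC proteins were counted in the same way. The lists are short, and their counts stand beside 12.8% of all genes compared higher and 11.7% lower past 3-fold. Of the peptide-loading genes, TAP1 and TAP2, which are subfamily B transporters under other symbols, had log2 folds of -0.53 and 0.73. TAPBPL was past 3-fold, with 20 parental reads and 69 knockout reads, but its interval of 2.02 to 5.85 crossed the threshold. TAPBP, which tethers the transporter to MHC class I, was 1.53-fold higher, so 1 of the 4 was called higher and 0 lower. Of the 2 pores of ATP-sensitive potassium channels, KCNJ8, the partner of ABCC9, had 29 reads in the parental library against 209 in the knockout and was 7.04-fold higher (interval 4.76 to 10.8). KCNJ8 lies 21789 bp from ABCC9 on chromosome 12. KCNJ11, the partner of ABCC8, had 12 and 15 reads.

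Of 10 genes of the liver X receptors (LXR) and cholesterol efflux, which control or serve ABCA1 and ABCG1, 1 was higher and 2 were lower past 3-fold. These shares, 10% and 20%, stand against 12.8% and 11.7% of all genes compared. MYLIP, a ubiquitin ligase for the LDL receptor, had 78 parental reads and 473 knockout reads and was 5.92-fold higher. LPCAT3, a phospholipid acyltransferase, had 1095 and 260 reads and was 4.31-fold lower. SREBF1, a regulator of lipid synthesis, had 627 and 211 reads and was 3.04-fold lower (interval 2.60 to 3.57), close to the threshold. These 3 LXR targets did not share a direction. APOE was 2.92-fold lower, just within the threshold, and the receptors NR1H2 and NR1H3 were 1.26-fold higher and 1.56-fold lower.

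Of the 6 xenobiotic sensors, which control drug-efflux genes, AHR, the aryl hydrocarbon receptor, had 182 reads in the parental library against 915 in the knockout and was 4.91-fold higher (interval 4.18 to 5.79). Its partner ARNT had 2293 and 885 reads and was 2.65-fold lower. NR1I3 (CAR) had 31 and 9 reads and was 3.53-fold lower (interval 1.64 to 8.42), and NR1I2 (PXR) had 0 reads in both libraries. NFE2L2, the factor of the antioxidant response, and its inhibitor KEAP1 were 1.28-fold and 1.37-fold higher.

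Of 16 carriers for drug uptake, 8 were compared, and 4 were higher and 0 lower past 3-fold. The interval lay wholly past 3-fold for 2 of the 4. Among the higher ones, SLCO4C1 had 9 parental reads and 96 knockout reads, SLCO3A1 had 20 and 113, and SLCO5A1 had 12 and 46. SLC22A5, the carnitine carrier, went the other way, with 223 and 99 reads. Of 8 genes of peroxisome import and beta-oxidation, which serve subfamily D, none passed 3-fold. PEX19, which guides ABCD proteins to the peroxisome, had 2414 and 1121 reads and was 2.20-fold lower (interval 2.05 to 2.37), and SLC27A2, an acyl-CoA synthetase, was 2.28-fold higher.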

How the data were processed

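RNA-Seq was analysed from 1 parental and 1 CARM1 KO library of A1847 cells. The authors aligned 75 bp paired-end reads to hg19 with bowtie2, used RSEM to estimate how many reads came from each Ensembl gene. The authors deposited these counts as whole numbers, not normalized. The Ensembl release and the use of strand are not given in the sources used here. Symbols came from the GENCODE annotation of GRCh37 by Ensembl identifier, for 55501 of 57736 genes. Start windows came from RefSeq by symbol.

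Counts were scaled with TMM in edgeR 4.0.16 under R 4.3.3. Having 1 library per condition leaves no spread for the quasi-likelihood test, so the main calls rest on no test, and edgeR exact tests at a set coefficient of variation served only as alternatives. Folds were computed over the whole table for genes whose summed reads reached 10, and genes were called past a fold of 3, with 0 reads set to 3 reads. Intervals are exact 95% Clopper-Pearson intervals from scipy 1.17.1 and cover counting error only. The steps were tested on simulated counts with counting error only, so that test does not cover differences between replicate libraries. RPKM used the canonical transcript.

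ABCB1, ABCC1 and ABCG2, every called member and the 5 members of highest mean RPKM are named with both counts, companion genes by list, and other genes as nearest neighbours. The members and lists were chosen with earlier results of these data known. The markers, the windows of 1 Mb and the CpG limit of 0.6 were chosen after the counts were at hand. Alternatives were other scalings including DESeq2 1.42.0, other minimums of reads, other call rules and a prior count of 2. Protein sequences and ChIP-seq were not used here. Values of some single genes are not reported here, though counts over the lists include them.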

Additional observations from a re-analysis of the deposited data

Results flagged for a closer look

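The pseudogene ABCA17P is not protein-coding and so is no member of the family as taken above, though it is counted among all genes compared. It had 154 reads in the parental library against 521 in the knockout, which made it 3.30-fold higher after knockout (95% counting interval 2.76 to 3.98), and is listed because the interval lay above the level in parental cells. It lies on chromosome 16 on the strand opposite to ABCA3, with the 5′ ends of the genes overlapping and no shared exonic base. ABCA3 was 1.37-fold higher.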

How the results depend on the processing

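Under the other scalings (library totals only, DESeq2 size factors, upper-quartile scaling and TMM from protein-coding genes only) and with a prior count of 2, 3 members were higher and 3 lower, and these were the same genes. A minimum of 1 read also gave 3 and 3. Genes with at most 3 reads in each library were left uncalled under that minimum, so part of this result was fixed in advance. At least 50 reads gave 2 higher and 3 lower members (7.14% and 10.7% of those compared), with ABCA4 no longer compared, and 1649 higher and 1219 lower genes in all (11.4% and 8.39%). With the counting interval required to lie past 3-fold, 2 members were higher and 1 lower, and 1292 genes in all were higher and 1234 lower. A fold above 2 gave 5 higher and 4 lower members, and 3631 higher and 3537 lower genes in all. The edgeR exact test at a set coefficient of variation of 0.12 and an FDR under 0.05 left the 3 and 3 members called. At 0.4 it called 0 members higher and 1 lower, ABCD2, (2.94% of the compared members), and 543 and 888 genes in all (2.93% and 4.78%), which follows from the wider spread that it assumes. These tests compare the libraries and not the conditions. Of 117 further comparisons of single members, 106 changed neither call nor value beyond the interval. Of the rest, 8 lost the call and 3, all of ABCE1, moved beyond its narrow interval. The other call rules reuse the same folds, so under them only a call could change, and part of the 106 was fixed in advance. The other scalings shifted all log2 folds alike, by -0.0448 to 0.034, so they could not reverse a called member, and none reversed. No paired analysis was possible because each condition had a single library, and for the same reason none could be left out. Depth limits the 12 members under 10 reads, for which no difference was detectable.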

Other observations

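Of 17 annotated ABC symbols that are not protein-coding, 6 had at least 10 reads. Beside ABCA17P and the ABCC6 copies, ABCA11P had 182 parental reads and 183 knockout reads, and ABCA15P had 12 and 16. ABCC13 had 10 reads in the parental library against 0 in the knockout, a level at least 3.41-fold lower against the floor of 3 reads, with a lower 95% counting limit of 2.29-fold.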
